A study of Mus musculus with 24 samples.

Results

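The span from the most immature blood stem cell to its CD48-positive progenitor was examined here as 6 RNA-seq libraries of 24 in the series: 3 of multipotent progenitor 2 cells (MPP2) and 3 of haematopoietic stem cells (HSC), all from Mysm1-heterozygous mice treated with tamoxifen. The libraries were chosen by their labelled cell type and genotype and by nothing measured. These mice, called Het here, were C57BL/6 animals of both sexes aged 8 to 12 weeks with the genotype Mysm1 fl/+ CreERT2. They had received intraperitoneal tamoxifen at 0.15 mg per gram in each of 8 injections over 16 days. Every Het library therefore carried tamoxifen exposure, the inducible recombinase and 1 floxed allele of Mysm1, which encodes a histone H2A deubiquitinase, and the labels do not name the promoter that drives CreERT2. Both cell types were Lin-, cKit+, Sca1+, CD150+ and Flt3-. HSC were further gated as CD34-CD48- and MPP2 as CD34+CD48+, and the intermediate MPP1 gate, CD34+CD48-, gave 3 more Het libraries that are used for the steps between. Other libraries enter as comparisons: 4 of HSC and MPP2 from Sham mice, which were Mysm1 fl animals given corn oil alone, and 6 from KO mice, which were Mysm1 fl/fl CreERT2 animals given the same tamoxifen course. Marrow of several mice was pooled for each sorted sample, so p-values measure the spread between pools and not between mice. Pools carry the numbers 1, 2_3 and 4 (Sham 2_3 and 4), and values are listed below in that order.

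HSC are the rare, mostly resting cells that can rebuild the whole blood system and renew themselves. MPP2 lie downstream of them, divide far more often, have little capacity for self-renewal and are known for a bias toward megakaryocyte and erythroid output. Quiescence is held by cycle inhibitors, low biosynthesis and niche signals, and its exit is marked by genes of DNA replication, mitosis and growth. The comparison asks which of these programmes separate the ends of the CD150-positive compartment in the tamoxifen-treated controls.

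Library totals in the 6 libraries ran from 18823971 to 45545930 counts, and 15932 to 21103 gene symbols were detected. Values are CPM, counts scaled to library size and composition, which compare a gene between libraries and not genes with each other. In bulk RNA, fewer cells of a type and less RNA per cell cannot be told apart. The labels were checked against marker genes. Of 10 HSC markers 9 fell in MPP2: Procr, Fgd5, Mecom, Hlf, Mllt3, Hoxb5, Ctnnal1, Slamf1 and Pdzk1ip1. The exception was Vwf, at 374, 293 and 346 CPM in HSC and 378, 204 and 472 CPM in MPP2 (log2 change 0.06, adjusted p = 0.972). Of 10 MPP2 markers 8 rose: Cd48, Mki67, Cdk6, Mcm5, Itga2b, Gata1, Pf4 and Klf1. Cd34, a gate of the sort, did not pass at the RNA level, with 75.1, 44.1 and 106 CPM in HSC and 134, 229.5 and 67.6 CPM in MPP2 (adjusted p = 0.145), and passed without MPP2 pool 4 (log2 change 1.27, adjusted p = 0.0353). Mpo did not pass either.

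Mysm1 itself stood at 129, 138 and 109 CPM in HSC and 104, 112 and 98.5 CPM in MPP2 (log2 change -0.26 (SE 0.14, adjusted p = 0.257)), a difference within the spread between pools. HSC of KO mice held 96.3, 115 and 121 CPM of it. The count is of the whole gene, so it is no check of the deletion, and the extent of deletion was not tested. Of the other genes behind the gates, Cd48 rose from 1.8, 2.02 and 0.827 CPM to 13.8, 24.1 and 17.6 CPM. Ly6a, which encodes Sca-1, fell from 24, 25.0 and 24 CPM to 2.01, 5.04 and 1.06 CPM although both cell types were sorted as Sca1+, and Kit fell from 737, 908 and 984 to 613, 503 and 528 CPM. Slamf1, which encodes CD150, fell by 0.88 on the log2 scale, and without HSC pool 2_3 its change was -0.53 (adjusted p = 0.0778). Flt3 stood at 14.0, 98.0 and 4.5 CPM in MPP2. Pool 2_3 was thus far above the other 2 in a gene whose protein was gated out, and without it Flt3 was lower in MPP2 than in HSC (log2 change -1.14, adjusted p = 0.0214).

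3 of the 6 libraries stood apart in some genes. HSC pool 1 held more cell cycle and erythroid transcripts than the other HSC pools, HSC pool 2_3 had the fewest genes detected, and MPP2 pool 2_3 held far more granulocyte and lymphoid transcripts than the other MPP2 pools. Results that rest on these pools are given with and without them below.

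Of 21456 genes tested, 3853 (18%) differed between MPP2 and HSC at an adjusted p under 0.05 in edgeR's quasi-likelihood test. There were 2057 higher in MPP2 (9.59%) and 1796 lower (8.37%), and the median change over all genes was -0.01 on the log2 scale. In 3653 of the 3853 the 3 MPP2 libraries lay wholly above or wholly below the 3 HSC libraries. Calls made from these same libraries favour such genes, and the share over all genes was not taken, so this is no separate support. Changes over 2-fold were found for 807 genes that rose and 1089 that fell, and changes over 4-fold for 327 and 398. Leaving out HSC pools 1 and 2_3 and MPP2 pool 2_3 together left 914 genes higher and 1309 lower, with a single HSC library in the comparison. When HSC pool 2_3 alone was left out, 1371 genes were higher and 1407 lower.

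**Figure D1:**
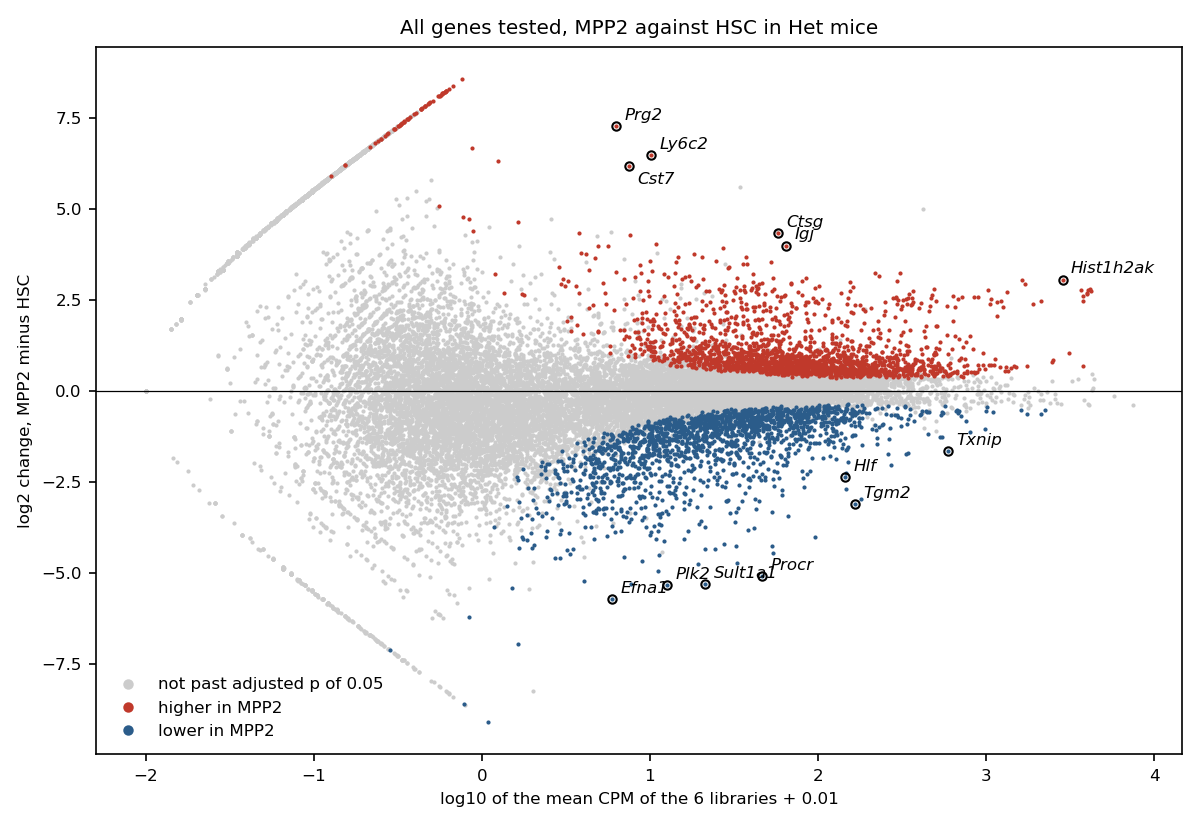
Each point is 1 of the 21456 genes tested; the horizontal axis is log10 of the mean CPM of the 6 libraries plus 0.01, and the vertical axis is the log2 change of MPP2 against HSC in Het mice. Red points (2057) are higher and blue points (1796) lower in MPP2 at an adjusted p under 0.05, and grey points did not pass.

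Among genes of at least 5 mean CPM whose libraries did not overlap, the 10 deepest falls ran from 4.65 to 5.72 log2 units. Procr (mm9 chr2:155576853-155581207) encodes the endothelial protein C receptor, which is used to enrich stem cells. It stood at 65.9, 114 and 92.1 CPM in HSC and 1.82, 4.59 and 1.71 CPM in MPP2, every MPP2 pool lying below every HSC pool, and fell by 5.09 (SE 0.52, adjusted p = 4.85e-06) on the log2 scale. Sult1a1 (mm9 chr7:133816379-133819946), a sulfotransferase, went from 29.5, 37.5 and 57.7 CPM to 1.05, 1.19 and 0.905 CPM, a fall of 5.31 (SE 0.46, adjusted p = 5.25e-08) with the pools of each cell type close to each other. The ephrin ligand Efna1 (mm9 chr3:89075655-89085064) fell from 10.9, 14.7 and 9.32 CPM to 0.0309, 0.261 and 0.352 CPM. That was the largest fall in this set, at 5.72 log2 units (SE 0.94). The kinases Plk2 and Nrk fell by 5.34 and 4.65, the muscle glycogen phosphorylase Pygm by 4.73, the pseudokinase Trib3 by 4.95, and Skint3, Wfdc2 and Smtnl1 by 5.29, 5.23 and 4.74.

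By the same rule the 10 largest rises ran from 3.98 log2 units upward to 7.29. Cst7, which encodes the protease inhibitor cystatin F (mm9 chr2:150396151-150404680), stood at 0.57, 0 and 0.0827 CPM in HSC and 10.5, 26.8 and 6.84 CPM in MPP2, a rise of 6.19 (SE 1.34, adjusted p = 0.00287) without overlap. The eosinophil major basic protein gene Prg2 reached 2.41, 20.6 and 14.6 CPM in MPP2 from 0.285, 0 and 0 CPM. Its fitted rise of 7.29 rests on a handful of HSC counts and passed in no fit that left out HSC pool 2_3 (adjusted p = 0.115), HSC pool 4 (0.0973), MPP2 pool 2_3 (0.0581) or MPP2 pool 4 (0.0561). Igj, the immunoglobulin J chain gene (mm9 chr5:88949537-88956916), stood at 12.7, 10.4 and 0 CPM in HSC and 92.3, 133 and 141 CPM in MPP2 (log2 change 4.0 (SE 0.95, adjusted p = 0.00709)). The mast cell carboxypeptidase gene Cpa3 rose from 1.71, 0 and 0.359 CPM to 11.7, 9.63 and 10.4 CPM with the 3 MPP2 pools nearly equal. Diras2, a Ras-like GTPase gene, rose by 3.98 and the SLAM family receptor gene Cd244 by 4.36. Btnl9 and Serpinb10 rose by 4.29 and 4.05, the latter with an adjusted p of 0.052 without HSC pool 4. Ly6c2, a monocyte surface gene, stood at 0.475, 0 and 0.221 CPM in HSC and 7.72, 48.3 and 4.07 CPM in MPP2. Its rise was 6.48, with MPP2 pool 2_3 far above the rest, and its near-identical neighbour Ly6c1 can share its reads. Ctsg, which encodes the granule protease cathepsin G, stood at 20.7, 301 and 10.9 CPM in MPP2, with pool 2_3 far above the rest; without that pool its change was 1.54 (adjusted p = 0.472).

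Genes of stem cell identity and quiescence fell together. Of 58 tested, 43 fell and 2 rose, with a median change of -1.61 against -0.01 over all genes. The strongest evidence was for Tgm2 (mm9 chr2:157942138-157972172), which encodes transglutaminase 2, at 209.8, 357 and 327 CPM in HSC and 30.8, 38.7 and 34.9 CPM in MPP2. The MPP2 pools were within a narrow range, well under the lowest HSC pool, and the fall was 3.1 (SE 0.23, adjusted p = 5.6e-09). Txnip, the thioredoxin-binding protein gene of resting cells, fell from 807, 949.7 and 965 CPM to 277, 243 and 345 CPM (-1.65 (SE 0.16, adjusted p = 5.04e-08)). The transcription regulator genes Prdm16, Mecom, Hlf and Mllt3, all known to be needed for or to mark self-renewal, fell by 2.44, 2.96, 2.35 and 2.24. Prdm16 stood at 70.4, 85.8 and 88.5 CPM in HSC and 17.2, 19.7 and 8.47 CPM in MPP2. Ndn and Neo1, members singled out after their values were seen, fell by 4.07 and 4.12. Neo1, a surface receptor of stem cells, stood at 11.1, 32.4 and 24.9 CPM in HSC against 0.309, 2.35 and 1.31 CPM in MPP2. Between 39 and 46 of the 58 members were lower in every alternative fit, with medians from -1.72 to -1.44.

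**Figure D2:**
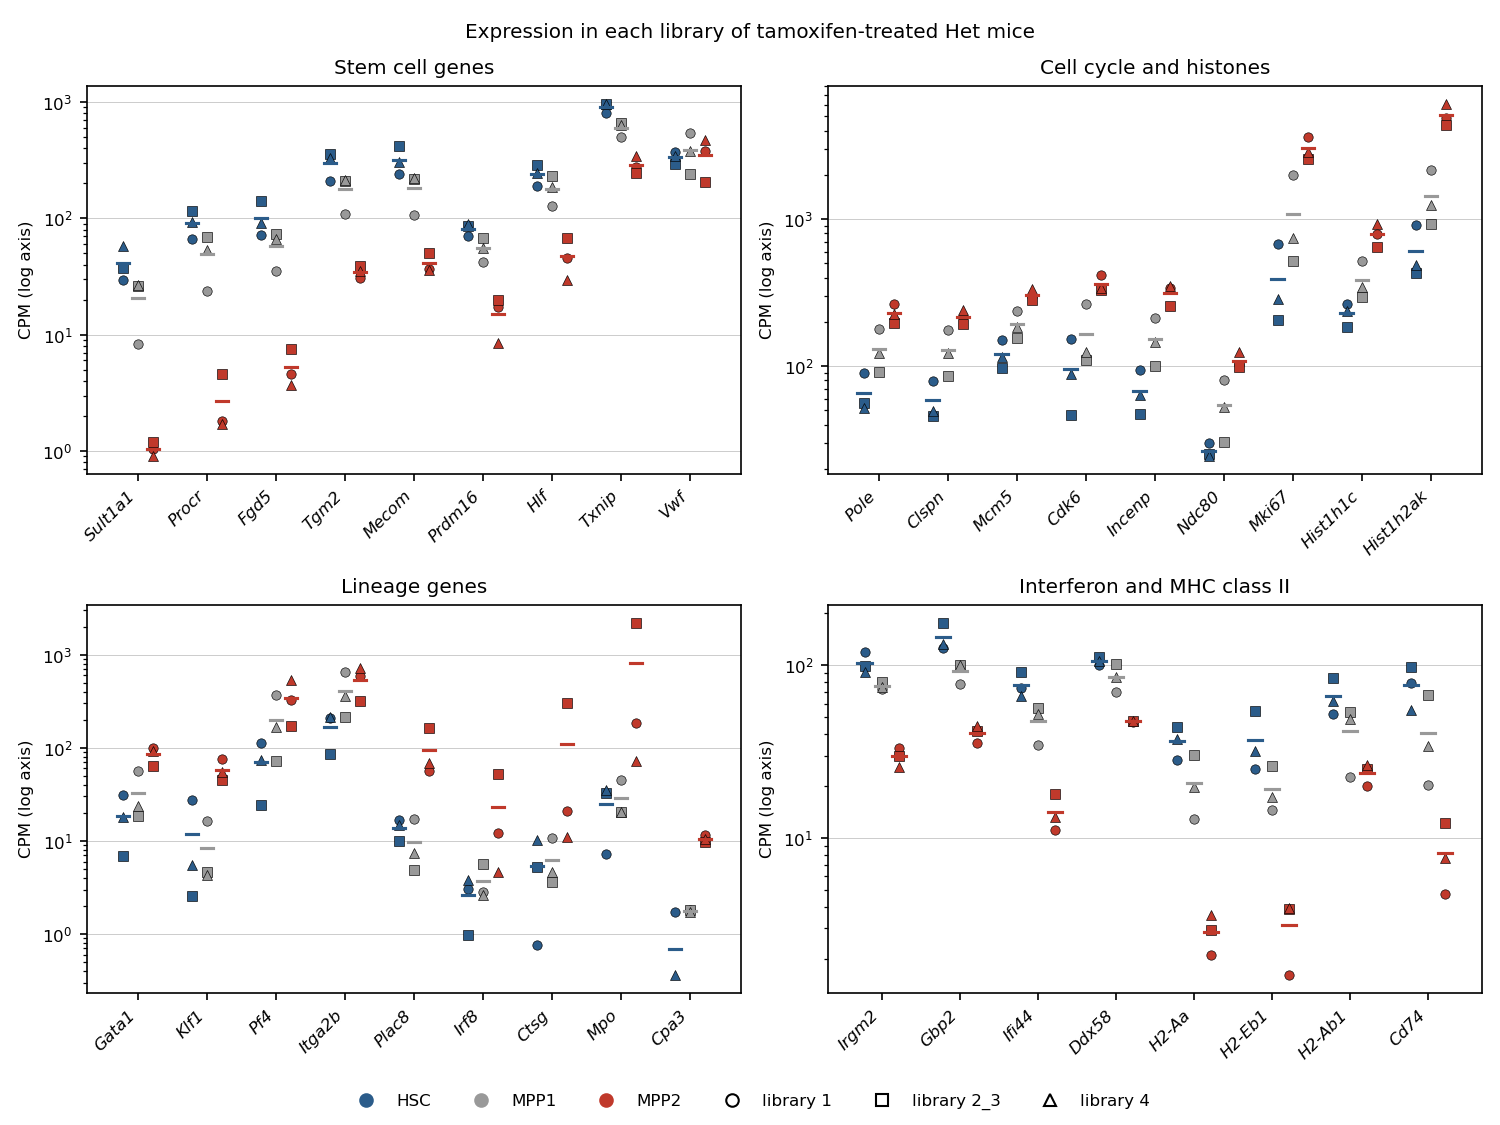
CPM (log axis) of 35 genes in each Het library of HSC (blue), MPP1 (grey) and MPP2 (red); symbols give the pool number and horizontal bars the mean of 3 libraries. Stem cell, interferon and MHC class II genes sit lower and cell cycle genes higher in MPP2, Vwf overlaps, and Mpo, Ctsg and Irf8 are raised mainly in MPP2 pool 2_3; Cpa3 at 0 in HSC pool 2_3 is not drawn.

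Cycle inhibitors did not move as a block. Of 26 inhibitors and quiescence regulators 5 rose and 7 fell, and the median was 0.01. These 46.15% called stand against 18% of all genes. When HSC pool 2_3 was left out, 3 rose and 5 fell, and when HSC pool 4 was left out, 4 and 4. Cdkn1c (mm9 chr7:150644255-150646955), which encodes the imprinted inhibitor p57 that keeps stem cells at rest, stood at 15.1, 37.5 and 42.3 CPM in HSC and 1.42, 2.61 and 2.59 CPM in MPP2. It fell by 3.84 (SE 0.51, adjusted p = 1.91e-05) with no overlap, HSC pool 1 being the lowest of its group. Tob1, an antiproliferative gene, fell by 1.75, and the pocket protein gene Rbl2 (p130) by 0.60. The related Rbl1 (p107) rose from 83.5, 76.1 and 77.7 CPM to 199, 170.3 and 196 CPM (1.25 (SE 0.20, adjusted p = 5.13e-05)) and Rb1 by 1.34. The 3 pocket protein genes thus went in different directions, p130, the form known from resting cells, downward and p107, itself an E2F target, upward.

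Among 18 drivers of G1, 12 rose and 3 fell (median 0.75). The atypical E2F genes E2f8 and E2f7 rose by 2.57 and 1.39, E2f8 from 46.5, 14.7 and 20.7 CPM to 179, 125 and 179 CPM. Cdk6, the kinase whose level is known to set the pace of exit from quiescence, rose from 154, 46.5 and 88.2 CPM to 419.7, 327 and 339.5 CPM (log2 change 1.91 (SE 0.37, adjusted p = 0.00128)). The 3 that fell were Mycn and the D-type cyclins Ccnd2 and Ccnd1. Mycn went from 166, 176 and 189.8 to 61.0, 51.6 and 90.1 CPM, a fall of 1.39 (SE 0.18, adjusted p = 2.82e-06), and Ccnd2 from 346, 385 and 386 to 224, 225 and 232 CPM, a fall of 0.71. Ccnd1, singled out after its values were seen, fell by 1.09 and the G1/S cyclin gene Ccne1, likewise, rose by 2.08. Myc did not pass the test, at 92.7, 46.5 and 82.2 CPM in HSC and 123, 107 and 97.2 CPM in MPP2 (adjusted p = 0.062).

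The clearest rise was in genes of replication and division. Of 50 S phase genes 47 rose and 0 fell, with a median of 1.32. Of 67 G2 and mitosis genes 65 rose and 0 fell, with a median of 2.50, and of 36 centromere and kinetochore genes 32 rose, with a median of 1.84. These shares stand against 9.59% of all genes. The checkpoint adaptor gene Clspn rose by 1.89, the DNA polymerase epsilon gene Pole by 1.80 and the chromatin assembly gene Chaf1a by 1.33. In mitosis, Incenp, of the chromosomal passenger complex, rose from 93.6, 47.4 and 63.6 CPM to 339, 258 and 350.1 CPM (2.21 (SE 0.26, adjusted p = 5.9e-06)), and Ndc80, of the outer kinetochore, from 30, 25.2 and 24.5 CPM to 102, 98.3 and 126 CPM. The lamin gene Lmnb1 and the chromatin-bound phosphatase partner Cdca2 rose by 1.79 and 2.33. The centromere genes Cenpk and Cenpm rose by 3.03 and 2.49 and the spindle gene Knstrn by 2.28. Cenpk was at 4.7, 2.22 and 4.55 CPM in HSC and 26.9, 31 and 35.8 CPM in MPP2. The proliferation marker Mki67 stood at 680.5, 207 and 286 CPM in HSC and 3630, 2574 and 2874 CPM in MPP2. HSC pool 1 was the highest of its group in Mki67, Clspn, Incenp and E2f8, and without it the medians of the S phase and the G2 and mitosis genes were 1.49 and 2.91.

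Promoters of these genes are shown because members of the list rose together and many mitotic genes are known to be controlled through a short element near the start of transcription, the cell cycle genes homology region (CHR). Sequences are RefSeq promoter entries on GRCm38.p6, 250 bases before to 50 after the start of each gene. The letters TTTGAA were searched on both strands, so that TTCAAA in a run is the same element read on the other strand. Of the 67 G2 and mitosis genes, 54 had an entry and 36 of these (66.7%) held it, against 2883 of 16627 genes tested with an entry (17.3%). Those 16627 are 77.5% of the genes tested, under the 80% asked of a list below, so the 17.3% leaves out the rest. Shown are runs of 80 bases upstream of the start, on the gene's own strand, for the members with the smallest adjusted p that hold the element there. Ndc80 would have been among the 3, but its match lies after its start, so Bub3 takes its place. Capitals mark the CHR.
Ncapd2, chr6:125191684-125191763, minus strand: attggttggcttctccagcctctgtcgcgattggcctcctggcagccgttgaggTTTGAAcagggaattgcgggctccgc
Cdc20, chr4:118437344-118437423, minus strand: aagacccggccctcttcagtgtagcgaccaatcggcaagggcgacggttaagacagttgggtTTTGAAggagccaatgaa
Bub3, chr7:131560273-131560352, plus strand: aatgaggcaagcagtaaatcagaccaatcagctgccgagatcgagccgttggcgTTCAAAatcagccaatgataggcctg
Ncapd2, a condensin subunit, stood at 127, 78.2 and 75.2 CPM in HSC and 454, 344 and 404 CPM in MPP2. Cdc20, the activator of the anaphase-promoting complex, rose from 19.6, 13.8 and 18.4 CPM to 83.7, 72.5 and 87.0 CPM (log2 change 2.23). Bub3, of the spindle checkpoint, had the smallest change of the 3, at 1.11 (SE 0.18), and its HSC pools were nearly equal.

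For S phase genes the element searched was the E2F site, TTTNNCGC with C or G at each N, on both strands. This search and the one for interferon genes were added after the lists had been examined. It is in 577 of the 16627 promoters (3.47%). Only 39 of the 50 S phase genes had an entry, under 80%, so no share is given for that list. The runs below belong to the members with the smallest adjusted p that hold the site upstream of their start, and capitals mark the site, or the joined letters where 2 sites on opposite strands overlap.
Mcm5, chr8:75109308-75109387, plus strand: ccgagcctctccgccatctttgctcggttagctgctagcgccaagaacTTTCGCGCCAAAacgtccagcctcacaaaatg
Pola1, chrX:93632266-93632345, minus strand: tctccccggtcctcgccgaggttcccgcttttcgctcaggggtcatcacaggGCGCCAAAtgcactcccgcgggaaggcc
Mcm6, chr1:128359725-128359804, minus strand: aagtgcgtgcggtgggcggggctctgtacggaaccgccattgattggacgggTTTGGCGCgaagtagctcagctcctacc
Mcm5 and Mcm6 encode subunits of the replicative helicase and rose by 1.33 and 1.06. Mcm5 was at 150.4, 96.8 and 115 CPM in HSC and 298, 282 and 334 CPM in MPP2, and Mcm6 at 363, 249 and 352 and 617, 562 and 831 CPM. Pola1, the catalytic subunit of the primase-polymerase, rose from 178, 79.6 and 122 CPM to 395, 354 and 453 CPM (log2 change 1.67).

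Replication-dependent histone genes, which package newly made DNA and whose transcripts mostly lack a poly(A) tail, rose with them. Ribosomal RNA depletion keeps such transcripts in the library. Of 61 tested, 57 rose and 0 fell, with a median of 2.50. The linker histone gene Hist1h1c (mm9 chr13:23830676-23832235) stood at 266, 186 and 239 CPM in HSC and 792, 649.5 and 928 CPM in MPP2 (1.78 (SE 0.18, adjusted p = 8.91e-08)). Hist1h1e and Hist1h1d rose by 1.94 and 2.30, and the core histone gene Hist1h2ak by 3.06, from 909.5, 433 and 492 CPM to 4846, 4399 and 6105 CPM. Near-identical copies within the clusters can share reads, so the value of a single core histone gene is uncertain while the sum over the family is less so. Summed, these genes took 2.97%, 1.5% and 1.53% of all counts in the HSC libraries. They took 6.31%, 2.87% and 3.38% in MPP1 and 10.6%, 8.09% and 11.4% in MPP2. The G2 and mitosis genes took 0.468%, 0.235% and 0.248% in HSC and 1.59%, 1.34% and 1.4% in MPP2. For both sets every MPP2 library lay above every HSC library, and pool 1 was the highest of the 3 HSC libraries.

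**Figure D3:**
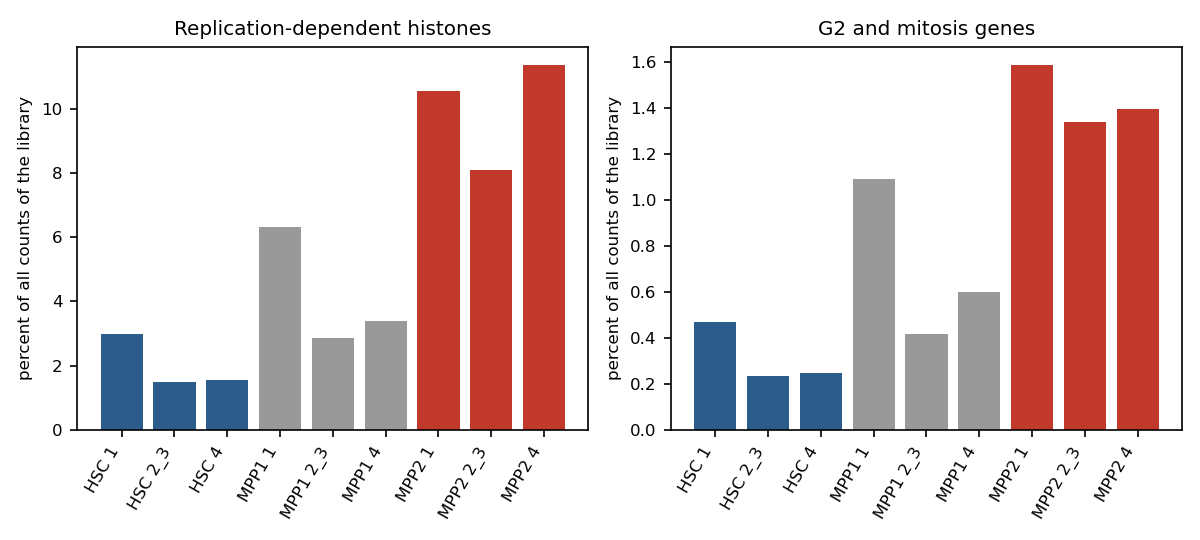
Percent of all counts of a library taken by replication-dependent histone genes (left) and by G2 and mitosis genes (right) in the 9 Het libraries; each bar is 1 library. Histone shares run from 1.5% to 2.97% in HSC and from 8.09% to 11.4% in MPP2, with MPP1 between them.

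Repair genes of the Fanconi and homologous recombination pathways, which act at stalled and broken forks, rose in 21 of 33 cases and fell in 0 (median 1.22). Brca1 rose from 37, 20.6 and 24.3 CPM to 141, 122 and 160.1 CPM (2.37 (SE 0.39, adjusted p = 0.000355)), and the helicase gene Blm and its partner Rmi1 by 1.98 and 1.18. Enzymes of nucleotide synthesis rose in 19 of 28 cases and fell in 0 (median 0.69). Rrm1, the large subunit of ribonucleotide reductase, went from 194, 142 and 139 CPM to 495, 431 and 529 CPM, a rise of 1.61. The one-carbon enzyme genes Mthfd1 and Mthfd1l rose by 1.41 and 1.24 and Prps1, which makes the ribose phosphate donor, by 0.79.

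Of 56 ribosome assembly and RNA polymerase I genes, 35 rose and 1 fell, against 9.59% and 8.37% of all genes (median 0.64). Nop56, a core protein of the small nucleolar particles, stood at 187, 159.7 and 204 CPM in HSC and 349, 339.5 and 371 CPM in MPP2 (0.94 (SE 0.15, adjusted p = 4.92e-05)). Rrp12, Wdr12 and Nolc1 rose by 0.96, 0.95 and 0.95. Of 46 large-subunit ribosomal protein genes 0 rose and 3 fell, with a median of -0.16 and fewer called (6.52%) than the 8.37% of all genes that fell, and of 33 small-subunit genes 0 rose and 7 fell (21.2%), with a median of -0.26. The 3 were Rpl9, Rplp1 and Rpl23a, with falls of 0.59, 0.52 and 0.43. Rps14 was at 517, 697 and 760.1 CPM in HSC and 393, 416 and 438 CPM in MPP2, a fall of 0.66 (SE 0.18, adjusted p = 0.00725), and Rps24, Rps9 and Rps3a1 fell by 0.62, 0.58 and 0.51. These counts were small and moved with single pools: 0 large-subunit and 2 small-subunit genes fell without HSC pool 2_3, 0 and 1 without HSC pool 4, 0 and 2 without MPP2 pool 1, 1 and 4 without MPP2 pool 2_3, 1 and 6 without MPP2 pool 4, and 12 and 10 without HSC pool 1. In the authors' normalized table, tested with limma, 36 large-subunit and 26 small-subunit genes fell, with medians of -0.53 and -0.63. Rps14 kept its call in each fit that left out 1 library. Processed pseudogenes can take reads from these genes, so single values are uncertain.

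Other parts of the protein-making machinery rose modestly. Widely expressed reference genes, read beside these lists, had a median of 0.31. In the authors' normalized table, tested with limma, medians were 0.41 for synthetases, 0.15 for translation factors and 0.26 for proteasome subunits. There 9 translation factor genes rose and 6 fell, and reference genes had a median of 0.04. Whether these lists rose beyond the reference genes was not tested. Of 20 cytosolic aminoacyl-tRNA synthetase genes 15 rose and 0 fell (median 0.62), among them Mars, Aars, Gars and Nars with rises of 1.10, 1.01, 0.95 and 0.78. Mars was at 62.7, 60.7 and 60.5 CPM in HSC and 136, 120.0 and 138 CPM in MPP2, with little spread in either group. Of 38 translation factor genes 17 rose and 1 fell (median 0.37). The release factor gene Etf1 rose by 0.92, and the initiation factor genes Eif3b, Eif5a and Eif2s2 by 0.80, 0.82 and 0.80. Proteasome subunits rose in 14 of 34 cases and fell in 1 (median 0.47), with Psmd11, Psmc4, Psmd13 and Psmd3 up by 0.97, 0.73, 0.67 and 0.64.

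Mitochondrial genes rose in the same range, and the reference genes had a median of 0.31. In the authors' normalized table the medians were 0.42 for oxidative phosphorylation, 0.37 for the tricarboxylic acid cycle and 0.44 for the mitochondrial ribosome. Of 75 nuclear-encoded genes of oxidative phosphorylation 38 rose and 0 fell (median 0.54). Uqcrc1, a core subunit of complex III, stood at 104, 101 and 106 CPM in HSC and 170.2, 165 and 169.6 CPM in MPP2, a small but even rise of 0.70 (SE 0.13, adjusted p = 0.000359). Ndufc2 and Ndufv1 of complex I rose by 1.12 and 0.78 and Cox8a of complex IV by 0.82. In the tricarboxylic acid cycle 10 of 18 genes rose and 0 fell (median 0.55), led by Idh3a, Mdh2, Dld and Sdhb at 0.86, 0.77, 0.67 and 0.74. Of 76 mitochondrial ribosomal protein genes 19 rose and 0 fell (median 0.42), with Mrps11, Mrps22, Mrpl18 and Mrpl12 up by 1.32, 1.16, 1.13 and 1.09. Leaving out 1 library at a time gave the lowest counts without HSC pool 2_3 for the tricarboxylic acid cycle (4) and without MPP2 pool 4 for the mitochondrial ribosome (11) and the proteasome (7). Oxidative phosphorylation had 23 without either, and translation factors had 10 without HSC pool 1, HSC pool 2_3 or MPP2 pool 1. With the 3 pools that stood apart left out, the counts higher shrank to 5 in oxidative phosphorylation, 4 in the cycle, 1 in the mitochondrial ribosome, 1 in the proteasome, 7 among synthetases, 3 among translation factors and 11 in ribosome biogenesis. The medians then were 0.48, 0.50, 0.46, 0.32, 0.64, 0.18 and 0.53.

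Glycolysis did not rise with them. Of 27 genes 2 rose and 9 fell (median -0.06), so that 40.7% were called, against 18% of all genes. Those that fell included the glucose transporter genes Slc2a1 and Slc2a3 and the aldolase gene Aldoc. Aldoc went from 16.5, 25.3 and 32.6 CPM to 2.9, 3.43 and 3.95 CPM, a fall of 2.85 (SE 0.41, adjusted p = 9.69e-06), and Slc2a1 from 27.8, 28.6 and 26.3 CPM to 8.36, 10.5 and 9.73 CPM, a fall of 1.53. Slc2a3 fell by 1.07. Ldhb, singled out after its values were seen, stood at 48.1, 76.6 and 106 CPM in HSC and 13.5, 22.1 and 11.9 CPM in MPP2 (-2.29 (SE 0.36, adjusted p = 0.000197)). The lactate transporter gene Slc16a1 was one of the 2 that rose, by 1.18. Lysosome and autophagy genes fell in 11 of 34 cases and rose in 0 (median -0.36), against 8.37% of all genes that fell. Gabarapl1 and Map1lc3b, which coat autophagosomes, fell by 1.53 and 1.06, Gabarapl1 from 172, 231 and 268 to 71.7, 72.7 and 88.5 CPM. The autophagy receptor gene Sqstm1 and the lysosomal protease gene Ctsl fell by 0.85 and 1.85. Cholesterol synthesis showed 2 genes that rose and 6 that fell of 23 (median -0.22; 2 that fell without HSC pool 2_3 or MPP2 pool 1), with Insig1, Srebf2 and Sc5d down by 1.19, 0.61 and 0.86 and Ebp up by 1.02. Sc5d did not pass without HSC pool 2_3 (adjusted p = 0.0638) or MPP2 pool 1 (0.0548).

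**Figure D4:**
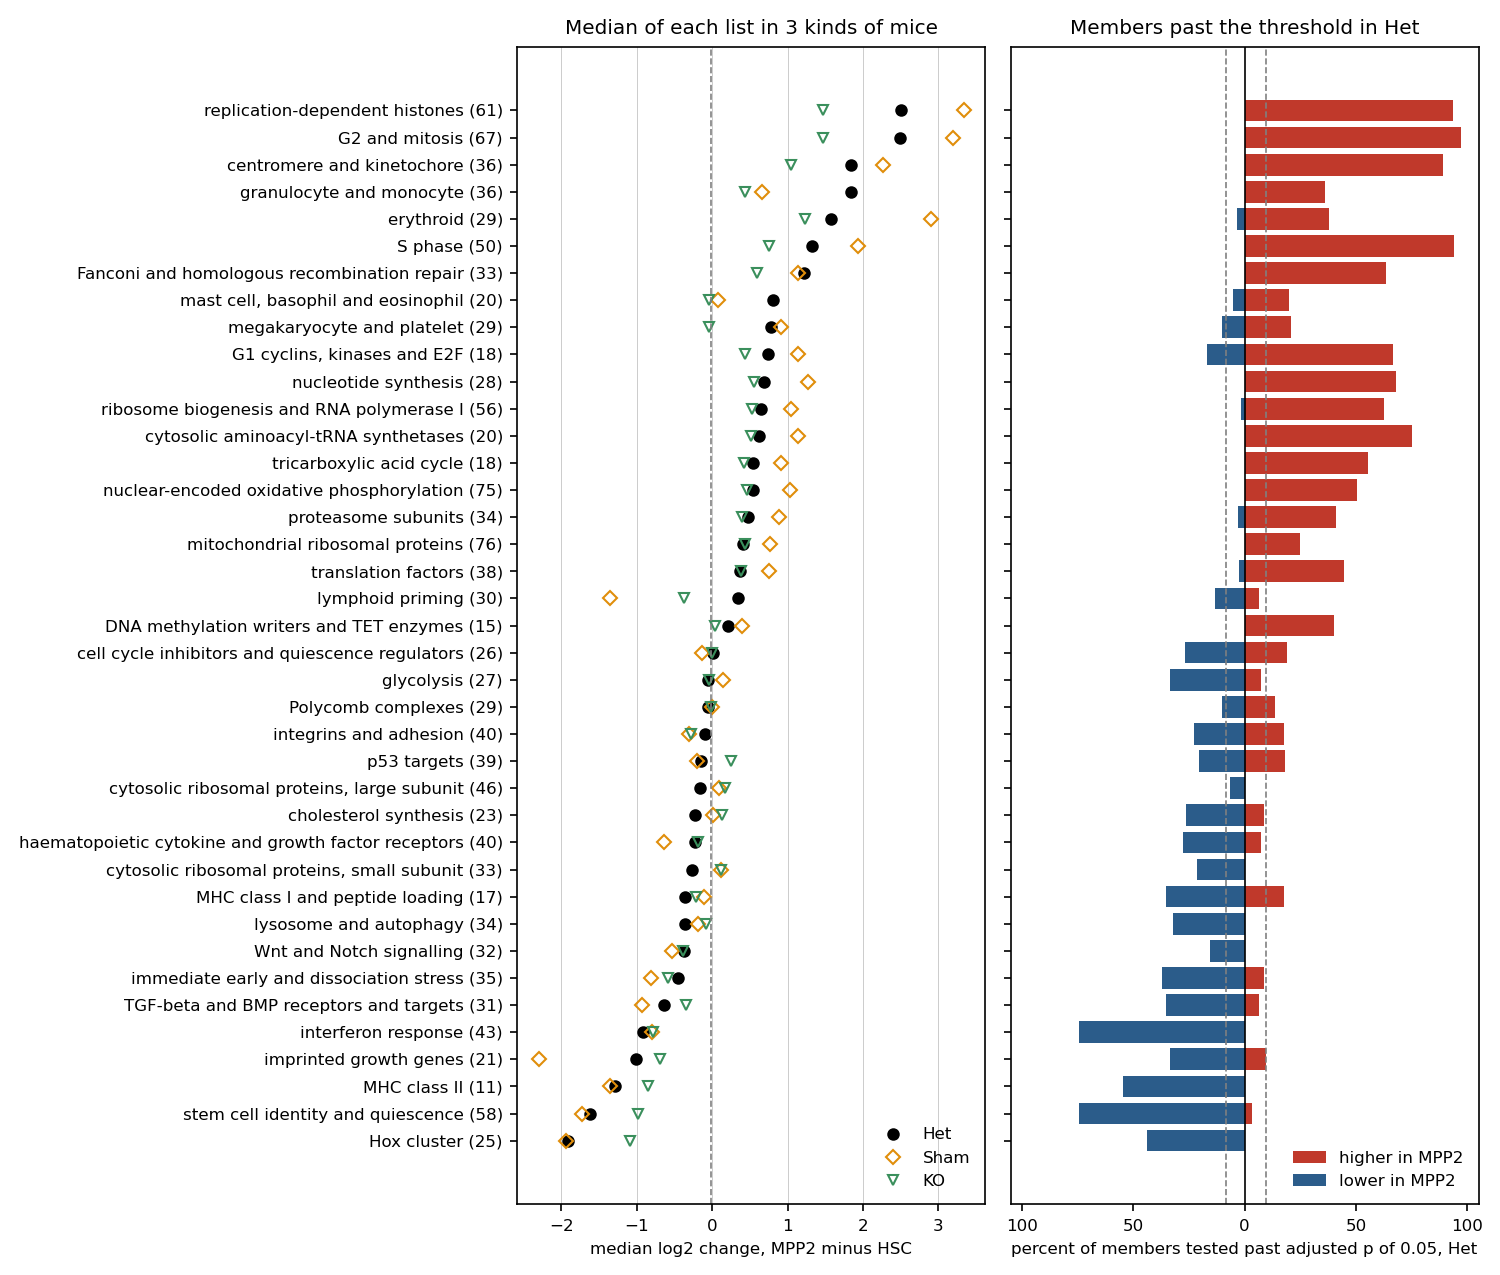
Left: median log2 change of MPP2 against HSC over the tested members of each gene list (number in brackets) in Het, Sham and KO mice, with the median of all genes in Het (-0.01) dashed. Right: percent of members tested past an adjusted p of 0.05 in Het, higher to the right and lower to the left, with the shares of all genes, 9.59% and 8.37%, dashed; S phase, mitotic and histone lists reach far past the dashed line on the higher side and stem cell, interferon and MHC class II lists on the lower side.

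Lineage genes rose unevenly and with more spread between pools. Of 29 erythroid genes 11 rose and 1 fell, with a median of 1.57, so that 41.4% were called, against 18% of all genes. Gata1 (mm9 chrX:7536386-7555197), the master regulator of the red cell and megakaryocyte lines, rose from 30.9, 6.85 and 18.2 CPM to 99.5, 63.0 and 91.6 CPM (2.19 (SE 0.45, adjusted p = 0.0025)). The transferrin receptor gene Tfrc rose by 2.01. Nfe2, also a platelet gene, fell by 0.74. HSC pool 1 held more of these transcripts than the other HSC pools: Car1, singled out after its values were seen, was at 176, 17.9 and 5.65 CPM in HSC and 401, 248 and 299 CPM in MPP2 and did not pass (adjusted p = 0.227). In all, 16 members rose without HSC pool 1 (median 2.40). Leaving out any other single library left fewer calls, from 4 without HSC pool 2_3 or MPP2 pool 1 to 9 without MPP2 pool 2_3. Of 9 late erythroid markers in the files 5 were tested and 0 passed, and Tspo2, a transporter gene of maturing red cells, was at 19.4, 7.84 and 16.4 CPM in MPP2.

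Of 29 megakaryocyte and platelet genes 6 rose and 3 fell (median 0.78). The number that rose was 12 without MPP2 pool 2_3, 4 without HSC pool 2_3 and 3 without MPP2 pool 4. Gp5, a subunit of the von Willebrand factor receptor, rose from 10.2, 6.46 and 14.0 CPM to 30.2, 21.2 and 41.7 CPM (1.60 (SE 0.32, adjusted p = 0.000739)). Itga2b and Pf4, an integrin and a platelet chemokine gene, rose by 1.68 and 2.29, and Pf4 was at 111, 24.4 and 74.1 CPM in HSC and 323, 172 and 529 CPM in MPP2. Nfe2 and Mmrn1 fell, and Mmrn1, the multimerin gene, went from 396, 579.9 and 589.9 CPM to 141, 115 and 231 CPM. Single platelet genes differed in direction: Mmrn1, which stem cells also express, fell, while Pf4, Gp5 and Itga2b rose.

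The size of the granulocyte and monocyte rise depended on MPP2 pool 2_3. The mean log2 CPM of the list was 2.77, 2.72 and 2.71 in HSC and 3.84, 5.64 and 3.47 in MPP2. With all pools 36.1% of the list were called, against 18% of all genes. Of 36 tested 13 rose and 0 fell (median 1.84), but when MPP2 pool 2_3 was left out, 5 rose, 4 fell and the median was 0.55. Mpo, the myeloperoxidase gene, was at 7.21, 32.9 and 35.1 CPM in HSC and 184, 2189 and 71.3 CPM in MPP2 and did not pass (adjusted p = 0.0554). Irf8, a monocyte regulator gene, stood at 12.1, 52.7 and 4.65 CPM in MPP2 and rose by 3.15; without pool 2_3 its change was 1.68 (adjusted p = 0.0508). Plac8 and Ap3s1 were raised in every MPP2 pool, Plac8 from 16.6, 9.91 and 14.7 CPM to 56.8, 162 and 68.4 CPM and Ap3s1 from 13, 18.6 and 15 CPM to 45.6, 90.4 and 45.2 CPM (1.96 (SE 0.30, adjusted p = 5.41e-05)). Calr, an endoplasmic reticulum chaperone gene on this list, rose by 0.64. Of 13 mature neutrophil markers 0 passed in either direction, and their summed level was 186, 639.5 and 291 CPM in HSC and 209, 812 and 183 CPM in MPP2. Pool 2_3 was the highest for neutrophil markers in both cell types, and their part in the granulocyte result was not tested.

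Of 30 lymphoid genes 2 rose and 4 fell (median 0.34). That is 20% of them, near the 18% of all genes called, and the counts moved with single pools. Without HSC pool 1, 6 rose and 5 fell (median 0.99), without MPP2 pool 2_3, 2 rose and 7 fell (median -0.88), and without MPP2 pool 1 or MPP2 pool 4, 4 rose and 4 fell. The 4 that fell were Gimap6, Ltb, Gata3 and Lsp1. Gimap6, a GTPase gene of lymphocytes, went from 168, 304 and 291 CPM to 30.7, 50.0 and 38.6 CPM (-2.68 (SE 0.31, adjusted p = 7.56e-06)), and Ltb, the lymphotoxin beta gene, from 33.5, 50.7 and 54.5 CPM to 1.79, 4.37 and 0.855 CPM. Gata3 and Lsp1 fell by 1.97 and 1.87. Dntt, singled out after its values were seen, was at 0.432, 202 and 0.0754 CPM in MPP2, with its signal in pool 2_3 (adjusted p = 0.0798). Of 20 mast cell, basophil and eosinophil genes 4 rose and 1 fell (median 0.81), so that 25% were called, near the 18% of all genes. Without HSC pool 1, 8 rose, and without HSC pool 2_3 or HSC pool 4, 2 rose. The median was 3.59 without HSC pool 1 and 0.14 without MPP2 pool 2_3. The rises were of Cpa3, Prg2, Ms4a2 and Prss34. Ms4a2, part of the IgE receptor, was at 1.04, 0 and 1.05 CPM in HSC and 9.78, 8.96 and 7.57 CPM in MPP2, and Prss34, a basophil protease gene, at 0.0949, 0 and 0 and 3.36, 2.87 and 1.11 CPM, too few HSC counts for a fold. The gene that fell was Kit.

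**Figure D5:**
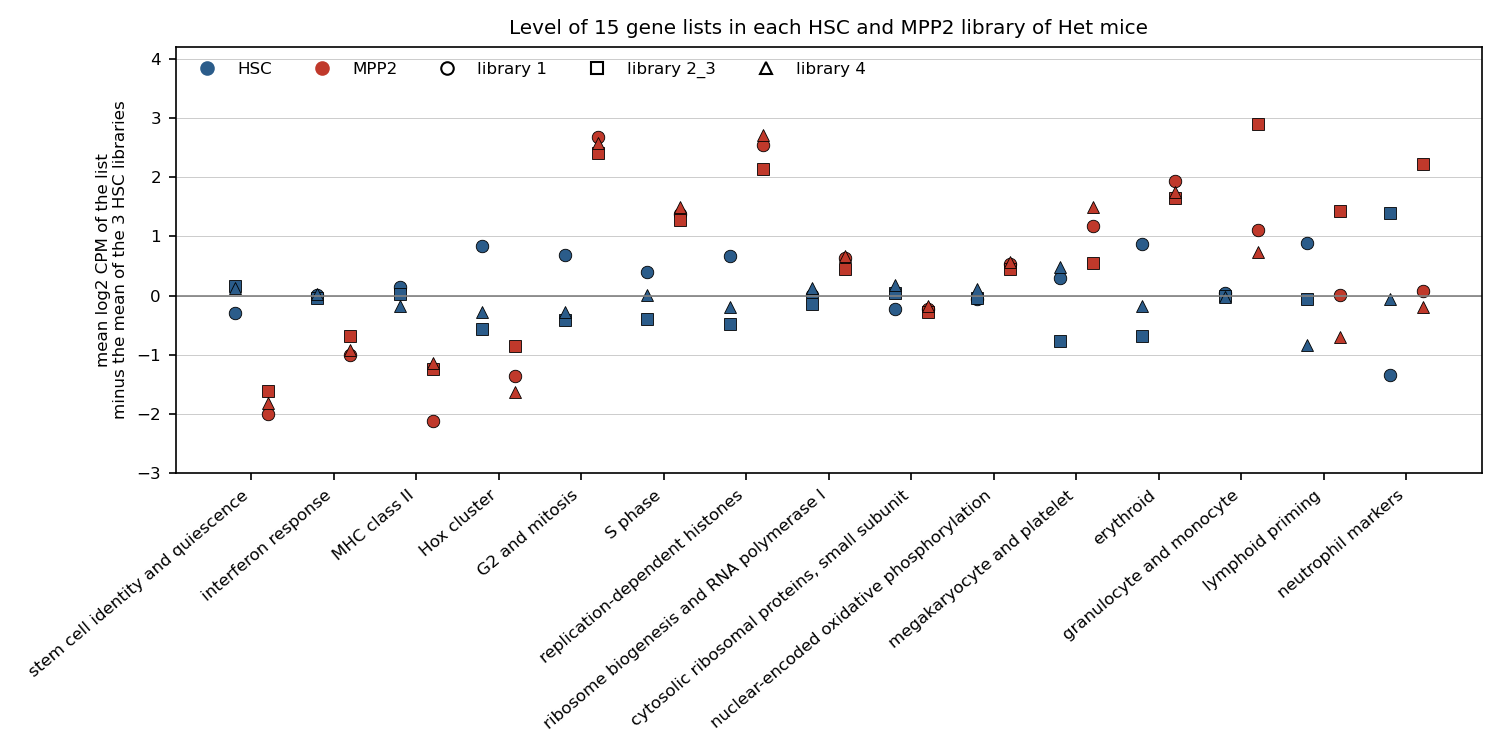
Mean log2 CPM of 15 gene lists in each HSC (blue) and MPP2 (red) library of Het mice, minus the mean of the 3 HSC libraries; symbols give the pool number. All lists but those of small-subunit ribosomal proteins, lymphoid genes and neutrophil markers separate the 6 libraries by cell type. HSC pool 1 is the highest HSC library in the erythroid list, and MPP2 pool 2_3 the highest MPP2 library in the granulocyte list.

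Interferon response genes were lower in MPP2 as a group. Stem cells are known to keep a basal level of antiviral genes without infection. Of 43 tested 0 rose and 32 fell (median -0.92), against 8.37% of all genes. Irgm2, an immunity-related GTPase gene, stood at 119, 98.8 and 92.0 CPM in HSC and 33.3, 30 and 25.8 CPM in MPP2, and the MPP2 pools were nearly equal, a fall of 1.79 (SE 0.17, adjusted p = 2.78e-08). The guanylate-binding protein gene Gbp2 fell by 1.84 and Ifi44 by 2.45. The RNA sensor gene Ddx58, which encodes RIG-I, went from 101, 112 and 106 CPM to 47.0, 47.8 and 47.8 CPM. Between 23 and 32 of the 43 fell in every alternative fit, with medians from -1.04 to -0.83.

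Promoters of interferon genes are shown for the interferon-stimulated response element (ISRE), the known binding site of the factors that turn these genes on. The letters searched were GAAA, any 2 bases and GAAA again, on both strands, and 632 of 16627 promoters (3.80%) hold them. 32 of the 43 interferon genes had an entry, under 80%, so no share is given for the list. The runs are chosen as above, and capitals mark the ISRE.
Irgm2, chr11:58214863-58214942, plus strand: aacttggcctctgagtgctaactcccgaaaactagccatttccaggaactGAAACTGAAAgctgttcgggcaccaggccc
Gbp2, chr3:142620554-142620633, plus strand: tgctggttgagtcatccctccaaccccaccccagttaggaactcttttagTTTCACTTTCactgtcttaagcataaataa
Ddx60, chr8:61928007-61928086, plus strand: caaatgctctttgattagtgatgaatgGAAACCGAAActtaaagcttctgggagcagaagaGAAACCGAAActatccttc
Gbp2 was at 126, 176 and 133 CPM in HSC and 35.3, 41.7 and 44.6 CPM in MPP2. Ddx60, an antiviral helicase gene whose run holds the element at 2 places, fell from 74.1, 83.8 and 70.1 CPM to 17.6, 27.4 and 27.1 CPM (-1.66 (SE 0.22, adjusted p = 3e-06)).

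Of 11 MHC class II genes 0 rose and 6 fell (median -1.29), against 8.37% of all genes that fell. H2-Aa (mm9 chr17:34406276-34424772), the alpha chain of I-A, went from 28.4, 43.8 and 37.3 CPM to 2.1, 2.95 and 3.6 CPM, a fall of 3.66 (SE 0.31, adjusted p = 8.59e-09) and among the best supported of all genes. H2-Eb1, the invariant chain gene Cd74 and H2-Ab1 fell by 3.56, 3.23 and 1.48. Their transactivator gene Ciita, singled out after its values were seen, fell from 21.2, 7.5 and 9.54 CPM to 2.22, 3.13 and 2.31 CPM (-2.32 (SE 0.42, adjusted p = 0.000162)). Among 17 genes of MHC class I and peptide loading 3 rose and 6 fell, so that 52.9% were called, against 18% of all genes. Canx and Calr, chaperones that also serve other proteins, rose by 0.67 and 0.64, while Tapbp, the dedicated loading factor, and B2m fell by 0.70 and 0.54. Without HSC pool 2_3 or MPP2 pool 2_3 only 1 of these 17 fell. B2m did not pass without HSC pool 2_3 (adjusted p = 0.079), MPP2 pool 1 (0.0672) or MPP2 pool 2_3 (0.0641).

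Hox genes, which pattern the embryo and sustain self-renewal in blood, all had a fitted change below 0. Of 25 tested 11 fell and 0 rose (median -1.91), against 8.37% of all genes that fell. Many were near the floor, with 8 of the 25 at 0 counts in HSC pool 2_3 and 4 in HSC pool 4. The median was -1.17 with limma and -1.22 without pool 1 of both cell types. Hoxb3, Hoxb2, Hoxa10 and Hoxa3 fell by 2.25, 2.53, 1.73 and 2.07. Hoxb3 was at 13.3, 15.7 and 15.9 CPM in HSC and 2.31, 2.58 and 4.55 CPM in MPP2, with HSC pools close together. Hoxa9 and its cofactor Meis1, singled out after their values were seen, fell by 1.29 and 0.81. Imprinted growth genes fell in 7 of 21 cases and rose in 2 (median -1.01), so that 42.9% were called, against 18% of all genes. Besides Cdkn1c these included Sgce, Zrsr1 and Igf2r, with falls of 1.75, 1.48 and 1.24, and Igf2r went from 102, 167 and 121 CPM to 55.4, 58.5 and 50.9 CPM.

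Of 29 Polycomb genes 4 rose (2 without HSC pool 2_3) and 3 fell, with a median of -0.06. These 24.1% called stand near the 18% of all genes, and its members are described singly. The histone methyltransferase gene Ezh2, singled out after its values were seen, rose by 1.44 and its partner Suz12 by 1.20, whereas Ezh1, the form known from resting cells, fell by 1.21. Ezh1 was at 45.9, 92.5 and 72.1 CPM in HSC and 31.6, 28.7 and 30.9 CPM in MPP2, and Ezh2 at 111, 61.7 and 67.4 CPM and 235, 190.4 and 224 CPM, without overlap for either. The chromobox genes Cbx7 and Cbx6 fell by 1.60 and 1.43. Of 15 genes of DNA methylation 6 rose and 0 fell (median 0.22). The maintenance methyltransferase gene Dnmt1 rose from 491, 356 and 478 CPM to 1116, 844 and 1102 CPM (1.21 (SE 0.19, adjusted p = 3.18e-05)), and Uhrf1 and Hells, which act with it at replicated DNA, by 1.87 and 1.49. Mbd3 rose by 0.66.

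Of 40 integrin and adhesion genes 7 rose and 9 fell (40% called against 18% of all genes). The integrin gene Itgal, which encodes CD11a, rose from 4.51, 3.49 and 1.82 CPM to 24.8, 35.1 and 23.1 CPM (3.09 (SE 0.35, adjusted p = 3.5e-07)). Esam, Jam3 and Robo4, surface molecules shared by stem cells and endothelium, fell by 1.69, 3.86 and 2.62, and Esam was at 39.9, 44.2 and 64.9 CPM in HSC and 13.3, 17.0 and 15.8 CPM in MPP2. Of 40 cytokine and growth factor receptor genes 11 fell, against 8.37% of all genes, and 3 rose, no larger a share than the 9.59% of all genes. Tie1, a receptor kinase gene of the angiopoietin pathway, fell from 98.9, 116 and 129 CPM to 41.6, 39.1 and 42.8 CPM (-1.48 (SE 0.19, adjusted p = 1.89e-06)). The interleukin-33 receptor gene Il1rl1, singled out after its values were seen, rose from 11.2, 2.94 and 1.32 CPM to 64.4, 31.1 and 64.0 CPM. In the TGF-beta and BMP pathway 2 of 31 genes rose and 11 fell (median -0.64), against 9.59% and 8.37% of all genes. The number that fell was 7 without HSC pool 2_3 or MPP2 pool 1 and 6 without MPP2 pool 4. The receptor genes Bmpr1a, Eng and Bmpr2 fell by 2.47, 1.38 and 1.23 and Ltbp3, which holds the latent ligand, by 1.24. The ligand gene Tgfb1, singled out after its values were seen, rose from 31.6, 27.7 and 27.6 CPM to 68.2, 73.4 and 68.9 CPM (1.28 (SE 0.32, adjusted p = 0.00853)), opposite to the receptors. Of 32 Wnt and Notch genes 5 fell and 0 rose (15.6% called against 18% of all genes), including the receptors Fzd3 and Fzd6, the secreted antagonist Sfrp1 and the effector Tcf7l2, with falls of 1.76, 1.13, 3.36 and 1.76.

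Immediate early and dissociation stress genes fell in 13 of 35 cases and rose in 3 (median -0.45), against 8.37% and 9.59% of all genes. They fell in 7 cases without MPP2 pool 1 and 8 without MPP2 pool 4. Nfkbia, Maff and Dusp2 fell by 1.19, 3.35 and 1.42, while the chaperone gene Hsp90aa1 rose by 1.03. Fos did not pass, at 6.98, 0 and 2.4 CPM in HSC and 3.83, 9.18 and 2.51 CPM in MPP2. Of 39 p53 targets 7 rose and 8 fell (3 and 6 when HSC pool 2_3 was left out). With all pools, 38.5% of them were called, against 18% of all genes. Sesn1 and Rrm2b fell by 0.94 and 0.79 and Psrc1, also a spindle gene, rose by 1.56. Cdkn1a, the canonical p53 target p21, was low in both cell types, at 1.71, 0 and 0.276 CPM in HSC and 0.617, 1.27 and 0.679 CPM in MPP2 (adjusted p = 0.822).

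Markers of B, T and NK cells and of stroma were called at 15.4%, 14.3% and 14.3%, near the 18% of all genes. Without HSC pool 1, 3 B and plasma cell markers and 3 T and NK cell markers rose. Of 13 B and plasma cell markers 1 rose (Igj) and 1 fell (Cr2, by 4.08), their summed level running from 30.7 to 91.2 CPM in HSC and from 142 to 189 CPM in MPP2, most of it Igj in MPP2. Of 14 T and NK cell markers Nkg7 rose and Klrb1c fell, by 3.31 and 2.93. Their sum was 24.7 to 64.2 CPM in HSC and 32.4 to 63.7 CPM in MPP2, and Nkg7 did not pass without HSC pool 4 (adjusted p = 0.0615). Of 15 macrophage and dendritic cell markers Bst2 fell, by 0.93, and it is also an interferon-response gene. Their sum was 56.9 to 99.7 CPM in HSC and 61.0 to 86.7 CPM in MPP2. Of 14 stroma and endothelium markers Pdgfrb rose and Emcn fell, by 1.70 and 1.71, and Col1a1 was at 5.27, 1.66 and 0.717 CPM and 2.35, 2.76 and 1.06 CPM. The stroma and endothelium sum was 132 to 213 CPM in HSC and 149 to 172 CPM in MPP2. Their part in the changes above was not tested. Widely expressed reference genes had a median of 0.31, with 3 of 14 that rose (Ppia and Hprt among them) and 1 that fell (B2m).

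The MPP1 libraries divide the comparison into 2 steps. The comparisons below share libraries with each other, so their values are given side by side. MPP1 against HSC called 3 genes (0.014%), all higher, with 2123 at an unadjusted p under 0.05. MPP2 against MPP1 called 1606 (7.49%), of which 693 were higher and 913 lower. These counts depend on the fit: with a replicate block over the pools of all 24 libraries the first step gave 282 higher and 59 lower and the second 1372 higher and 1269 lower. Same-numbered HSC and MPP2 libraries deviated together over genes above 5 CPM, and over all genes this was not seen for each number. For the G2 and mitosis genes the median change was 1.34 from HSC to MPP1 and 1.18 from MPP1 to MPP2, and for S phase genes 0.69 and 0.58. In the step from HSC to MPP1 0 of these G2 and mitosis genes and 1 of the S phase genes passed the test, and in the step from MPP1 to MPP2 18 and 5. For stem cell genes the medians were -0.35 and -1.16, for Hox genes -0.44 and -1.5, and for interferon response genes -0.34 and -0.62. For erythroid genes they were -0.03 and 1.37, and for genes of oxidative phosphorylation 0.10 and 0.41. For platelet genes they were 0.56 and 0.27. Procr was at 23.7, 69.7 and 53.4 CPM in MPP1, between the other cell types in each pool. MPP1 pool 1 was lower in Procr, Tgm2 and Sult1a1 and higher in Mki67 than the other MPP1 pools, with 2005, 515 and 748 CPM of Mki67.

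Sham mice, which received corn oil without tamoxifen, gave the same comparison between 4 libraries of their own, 2 of each cell type. Their genotype label was Mysm1 fl and not Mysm1 fl/+ CreERT2, and the labels do not say whether they carried CreERT2. Tamoxifen and genotype thus cannot be told apart between Sham and Het. The Sham libraries were part of the same fit, which takes a single estimate of the spread from all 24 libraries. The calls in Sham and Het therefore share that estimate. There 4565 genes (21.3%) differed, 2914 higher and 1651 lower, and the median of all genes was -0.29. Of the 3853 genes called in Het, 3745 (97.2%) had the same sign in Sham, 2896 (75.2%) were called the same way and 2 the opposite way. Stem cell genes had a median of -1.73 in Sham, G2 and mitosis genes 3.20, S phase genes 1.93 and interferon response genes -0.80. The biosynthetic lists had larger medians in Sham: 1.04 for oxidative phosphorylation and 1.05 for ribosome biogenesis, against 0.54 and 0.64 in Het. Erythroid genes had 2.90 in Sham and 1.57 in Het. Large-subunit ribosomal protein genes had 0.09 and small-subunit genes 0.12, on the other side of 0 from Het. The change differed between Sham and Het at an adjusted p under 0.05 in edgeR for no gene (0 of 21456, with 1931 at an unadjusted p under 0.05, and 0 by limma). The differences between list medians were not tested, and they set unlike pools side by side, since Sham had no pool 1. Without pool 1 of both cell types the Het medians were 2.23 for erythroid, 2.825 for G2 and mitosis and 1.52 for S phase genes. For oxidative phosphorylation and ribosome biogenesis they were 0.53 and 0.59.

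KO mice gave 1296 calls (6.04%), 728 higher and 568 lower, with a median of all genes of -0.17, and with the replicate block 1404 higher and 974 lower. Of the 3853 Het calls, 3713 (96.4%) had the same sign in KO, 1152 (29.9%) were called the same way and 1 the opposite way. The medians in KO were -0.98 for stem cell genes, 1.47 for G2 and mitosis genes, 0.76 for S phase genes and -0.79 for interferon response genes. The change itself differed between KO and Het for 7 genes (0.0326%), all with a positive difference: Kcnk5, Gas6, Nrk, Pik3cd, Glipr2, Plxdc2 and Tgm2. Gas6 (mm9 chr8:13465374-13494535), the ligand of the TAM receptor kinases, was at 11.2, 12.2 and 14.5 CPM in HSC and 0.617, 1.42 and 0.603 CPM in MPP2 of Het mice. In KO mice it was at 6.72, 9.9 and 8.08 CPM and 6.42, 6.47 and 3.93 CPM, so that the cell types lay closer together there. Nrk was at 11.5, 19.8 and 20.7 CPM and 0.432, 0.597 and 1.01 CPM in Het and at 3.44, 7.3 and 3.98 CPM and 2.23, 2.1 and 1.49 CPM in KO.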

How the data were processed

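Each library is a deposited table of raw counts for 23364 gene symbols. The submitters' processing notes list TopHat2 2.0.9, Bowtie 1.0.0, featureCounts, Trimmomatic 0.33, FastQC, R 3.1.2 and edgeR, without their order, and build mm9. The strand setting of the counting is not given in the sources used here, so overlapping and antisense genes may share reads. The authors also deposited a table of normalized signal for 12186 genes, used for a single alternative. 0 columns were left unused, and 1 library with another row order was joined by symbol. Depth was 18823971 to 45545930 counts per library, which with 3 libraries a group limits low genes most.

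The analysis ran edgeR 4.0.16 under R 4.3.3 (filterByExpr with a least count of 10, TMM scaling, robust quasi-likelihood fit of all 24 libraries in 9 groups, 15 residual degrees of freedom), which left 21456 genes. Fitting all groups gave them one estimate of the spread. Tests were two-sided, with Benjamini-Hochberg adjustment across the 21456 genes and a threshold of 0.05. The standard error of a log2 change is approximate: its size over the root of the F statistic. Alternatives used limma 3.58.1, DESeq2 1.42.0, other scaling and filters, replicate blocks and libraries left out. The scripts were tested on simulated counts. The members and gene lists were chosen with earlier results of these data known. Named genes were the 10 largest rises and falls whose libraries did not overlap and whose higher mean reached 5 CPM, and up to 4 members of each list by smallest adjusted p, or 2 as values where none passed. Some genes the rule names are not reported here. Others were singled out after their values were seen, apart from the markers. Gene positions are those of mm9 (181 of 185 named genes), and promoters are RefSeq entries of GRCm38.p6.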

Additional observations from a re-analysis of the deposited data

Results flagged for a closer look

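5 genes are listed because the change from HSC to MPP2 itself differed between KO and Het mice, by an interaction term in edgeR's quasi-likelihood model over all 21456 genes. Each difference is KO minus Het on the log2 scale, and each is positive. The fall seen in Het was smaller or absent in KO, or the fitted change there was above 0, as for Pik3cd and Glipr2. Kcnk5, a potassium channel gene, differed by 1.59 (SE 0.27, adjusted p = 0.0198): it fell by 1.57 in Het and stood at 0.01 in KO. Gas6 differed by 3.30 (SE 0.57, adjusted p = 0.0198), with -3.85 in Het and -0.55 in KO. Nrk, a kinase gene, differed by 3.32 (SE 0.58, adjusted p = 0.0198), with -4.65 and -1.33. Pik3cd, the delta catalytic subunit of PI3 kinase, differed by 1.35 (SE 0.26, adjusted p = 0.0435), with -0.89 and 0.46. Glipr2 differed by 1.99 (SE 0.37, adjusted p = 0.0435), with -1.45 and 0.54. Each rests on 3 libraries in each of 4 groups. The number of such genes was 3 with DESeq2's scaling of library sizes, 5 with limma and 81 higher with 37 lower with a block for the pool.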

How the results depend on the processing

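Of the 3853 genes called, 98.7% were called again with DESeq2's size factors in edgeR, 96.2% without a filter, 98.1% with at least 1 CPM in 3 of the 6 libraries, 97.5% with limma and 77.0% with DESeq2, which was fitted to the 6 libraries only, so that tool and libraries changed together. Fitting the 6 libraries alone, with their own estimate of the spread, gave 1170 higher and 1122 lower. Leaving out 1 library at a time gave 1371 to 2151 higher and 1297 to 2026 lower, the lowest number higher being without HSC pool 2_3, and 69.0% to 87.9% of the calls were made again. Leaving out HSC pools 1 and 2_3 and MPP2 pool 2_3 together, an alternative chosen after the data were seen, gave 914 higher and 1309 lower. It left a single HSC library, assumed to vary like the other groups, made 50.4% of the calls again and turned the sign of 4 called genes. Of the 3853 genes no other fit turned a sign, apart from 1 gene in the authors' normalized table. The share of calls that were higher was 53.4% in the main fit, 49.1% to 58.0% in the other alternatives and 41.1% without those 3 libraries. The median over all genes moved to 0.22 without HSC pool 1, 0.21 without pool 1 of both cell types, 0.18 without the 3 libraries, 0.13 with limma, 0.11 with a block over all libraries, -0.10 without MPP2 pool 2_3 and -0.11 without pool 2_3 of both cell types. Of the 179 named genes past the threshold, 143 to 179 kept their call and 0 reversed. MPP1 against HSC gave 8 higher and 1 lower with limma and 1 lower with DESeq2's size factors. The KO minus Het difference gave 3 genes with DESeq2's size factors.

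The replicate numbers are shared between cell types, but the labels do not say that a number marks the same mice. Deviations from the group means of same-numbered HSC and MPP2 libraries correlated at -0.007, -0.029 and 0.184 over all genes, so the pairing was not taken as shown. Over genes above 5 CPM the values were 0.183, 0.225 and 0.392, each the highest for its own number, a hint from the data and not from the design. A replicate block in the 6 libraries gave 1812 higher and 1488 lower, in the 9 Het libraries 2074 and 1640, and over the pools of all 24 libraries 2488 and 2053. That last replicate block gave 282 higher and 59 lower for MPP1 against HSC, 1372 higher for MPP2 against MPP1, 1404 higher and 974 lower in KO, and 81 higher and 37 lower for the KO minus Het difference.

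Depth was 18823971 to 45545930 counts. The 58 called genes at 0 in all 3 HSC libraries had at most a mean of 1.51 CPM, and a fold for them is not given.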
